A study of Mus musculus with 2 samples.

Results

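Histone-modifying enzymes write, erase or alter the chemical marks on histones. The 66 genes described here were taken from a table of 46095 gene entries by their symbols: lysine methyltransferases of the KMT2, SETD and NSD families (the last listed as Nsd1, Whsc1 and Whsc1l1), lysine demethylases (KDM genes and Jmjd1c), lysine acetyltransferases (KAT genes, Crebbp and Ep300), deacetylases (HDAC genes), sirtuins (SIRT genes) and arginine methyltransferases (PRMT genes). The match used symbols only, with earlier results of these data known when the families were chosen, and 3 genes of these families are not analysed here. RNA sequencing compared acute myeloid leukaemia cells carrying Mac1, the integrin encoded by Itgam, and the stem cell factor receptor KIT, sorted from bone marrow of C57BL/6 mice aged 8 weeks. The labels give 1 library as wild type (WT) and 1 as a P2X1 knockout (P2X1-KO), the gene in question being P2rx1, which encodes an ATP-gated cation channel. The protocol text adds a scrambled control name to the first group and a knockdown name to the second. The sources used here do not name the leukaemia driver, the cells that received it or the number of mice behind each library.

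Acetylation of histone lysines is generally found on active genes, and deacetylases remove it. Methylation acts by position: methylated lysine 4 of histone H3 (H3K4) marks promoters and enhancers, methylated H3K36 marks transcribed gene bodies, and methylated H3K9 or H3K27 marks repressed regions. Several of these enzymes are recurrently mutated or needed in myeloid leukaemia, among them the acetyltransferases CBP and p300, the demethylases LSD1 and UTX, JMJD1C, NSD family enzymes and PRMT5.

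The library labelled WT held 14658620 counts and the library labelled P2X1-KO 9447894. Levels are given as CPM, the count of a gene relative to the library's size after TMM scaling (trimmed mean of M values). Each fold below is a ratio of CPM with an exact 95% interval that covers counting error only, since 1 library per group leaves no replicate check and no p-value. P2rx1 had 27 counts (1.73 CPM) in the library labelled WT against 45 counts (5.07 CPM) in the other, 2.93-fold higher in the latter (1.78 to 4.90), so the targeted transcript goes against the label. Markers of other cell types also moved between the libraries. The summed level of 12 neutrophil markers was 3491 CPM in the library labelled WT against 14185 CPM in the other, with 10 markers at least 2-fold higher and none at 0. Ly6g went the other way, from 6.99 to 4.05 CPM. For 10 monocyte and macrophage markers the sums were 354 and 5205 CPM, with 8 at least 2-fold higher, Ms4a7 at 0 counts in the library labelled WT and Mrc1 at 0 in the other. For 10 eosinophil and mast cell markers they were 52.1 and 246 CPM (Tpsb2, Ear1 and Ccr3 at 0 in both). On that list Mcpt8 went the other way, from 34.0 to 23.0 CPM. For 10 stromal markers the sums were 95.1 and 254 CPM (Dcn, Lum and Pdgfra at 0 in both, Col3a1 and Col1a2 at 0 in the first and 264 and 213 counts in the second). The stromal genes did not move as 1: Pdgfrb made up 93.1 CPM of the first sum and was at 47.1 CPM in the second, Cxcl12 went from 14 counts to 0, and Col1a1 from 15 to 1327. The 8 B cell markers summed to 16.9 and 49.8 CPM, with Ms4a1, Pax5 and Ebf1 at 0 in both. The 8 erythroid markers summed to 0.962 and 2.14 CPM, with Epor, Alas2 and Hbb-bt at 0 in both, and the 8 T and NK cell markers summed to 0.128 and 0.901 CPM, with Trac, Cd4, Cd8a, Cd3g, Ncr1 and Klrb1c at 0 in both. The 8 markers of the sorted cells, such as Kit, Itgam, Myb and Hoxa9, summed to 1702 and 1603 CPM and none differed by 2-fold. Within these sums genes moved both ways. Mpo went from 297 to 158 CPM and Flt3 from 72.0 to 47.4 CPM. Itgam went from 307 to 504 CPM, Kit from 13.3 to 19.9 CPM and Cd34 from 21.5 to 32.9 CPM. Whether the markers of other cell types came from such cells or from the leukaemia cells was not tested. Their part in the differences below was also not tested. In bulk RNA fewer cells of a type and less RNA per cell cannot be told apart.

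Most histone-modifying enzymes were modestly lower in the library labelled P2X1-KO, while a small set of deacetylases, sirtuins and 1 demethylase was higher. Of the 66 genes, 60 averaged 5 CPM or more between the libraries, 4 had counts below that level, and 2, Kdm4d and Prmt8, had 0 counts in both. Among the 60, 48 (80.0%) were lower in the library labelled P2X1-KO by any amount, against 54.2% of the 10483 genes at that level, and 12 were higher (45.8% of all genes). At least 2-fold lower were 7 (11.7%), namely Kat6b, Kdm6a, Nsd1, Jmjd1c, Prmt6, Crebbp and Prmt5, beside 10.6% of all genes. Kdm7a and Sirt2 were at least 2-fold higher, 2 of 60 (3.33%) beside 12.1% of all genes. The share of members at least 2-fold lower was thus near that of all genes, and the share at least 2-fold higher was smaller. For 4 members, Kat6b, Kdm6a, Nsd1 and Jmjd1c, the whole interval lay beyond 2-fold lower (6.21% of all genes), and for 0 beyond 2-fold higher (9.37%). The median log2 difference, log2(CPM + 0.5) in the library labelled P2X1-KO minus that in the library labelled WT, was -0.42 over the 60 members and -0.08 over all genes.

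The members are long genes, and long genes in general were lower in the library labelled P2X1-KO. Their median exon length was 6064 bases against 4358 bases for all genes at the same level, and 24 of the 60 were among the 2049 genes with the longest exons. Over those 2049 genes the median log2 difference was -0.40, and over the 24 members -0.50, while over the 2049 genes with the shortest exons it was 0.41. The 1 member among the shortest was at -0.40. Over genes with exons of 3632 to 5188 bases the median was -0.11, and over the 10 members among them -0.53. For 2303 to 3631 bases it was -0.01, and -0.10 over 8 members. For 5188 to 7475 bases it was -0.23, and -0.34 over 17 members. After a correction for exon length and GC content the members' median was -0.12, with 39 of 60 below 0, beside 50% of all genes. Then 2 members were at least 2-fold lower, Kat6b and Prmt6, beside 7.6% of all genes, and 2 higher, Kdm7a and Sirt2, beside 11%. Total-count scaling moved the median of all genes by -0.18, to -0.26, and left 0 members past 2-fold in the higher direction and put 12 of 60 past it in the lower direction, beside 9.67% and 15.3% of all genes. Among all genes past 2-fold, the share that was higher was 53.4% with TMM and 38.7% with total counts, and the share that was lower 46.6% and 61.3%. Scaling shifts all genes nearly alike, so the distance between the members' median and that of all genes, -0.34 under both, could hardly change. After the length and GC correction that distance was -0.12.

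**Figure D1:**
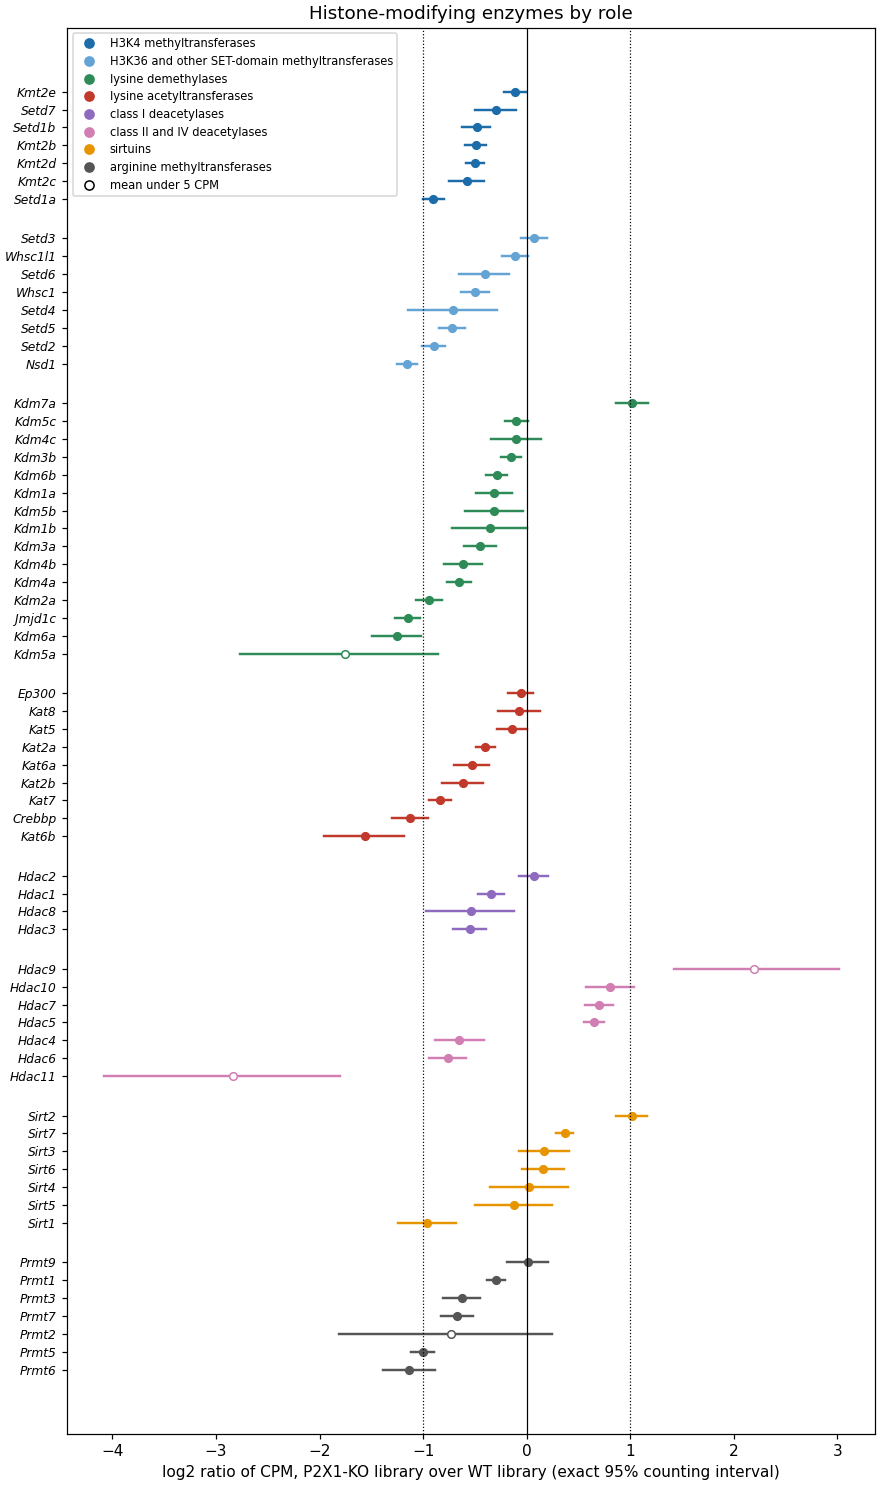
Log2 ratio of CPM, the library labelled P2X1-KO over the library labelled WT, for the 64 members with counts, grouped by role (colours); points are ratios, lines exact 95% counting intervals, open points members with a mean under 5 CPM, and dotted lines 2-fold. Every point of the H3K4 methyltransferase and acetyltransferase groups lies left of 0, while Hdac5, Hdac7, Hdac10, Sirt2, Sirt7 and Kdm7a lie right of it with their whole intervals.

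Upstream sequences are shown for 4 members, 2 higher (Kdm7a and Hdac5) and 2 lower (Kat6b and Kdm6a) in the library labelled P2X1-KO. The choice was made after their values were seen, for windows with few or no bases in annotated exons, and did not follow rank: Sirt2, Hdac10 and Hdac7 were further from no change than Hdac5. Each is the 250 bases before a RefSeq transcription start (GRCm38.p6), 5′ to 3′ on the gene's strand, at chr6:39206774-39207023 (minus) for Kdm7a, chr11:102230173-102230422 (minus) for Hdac5, chr14:21499520-21499769 (plus) for Kat6b and chrX:18162325-18162574 (plus) for Kdm6a. Capitals mark the GC box GGGCGG, a sequence bound by SP and KLF factors, or its complement CCGCCC.
Kdm7a: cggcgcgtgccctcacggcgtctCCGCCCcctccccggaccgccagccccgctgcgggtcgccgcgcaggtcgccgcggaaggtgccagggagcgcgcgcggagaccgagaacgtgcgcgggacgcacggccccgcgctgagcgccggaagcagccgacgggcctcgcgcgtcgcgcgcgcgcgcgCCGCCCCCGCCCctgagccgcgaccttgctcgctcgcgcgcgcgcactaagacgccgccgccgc
Hdac5: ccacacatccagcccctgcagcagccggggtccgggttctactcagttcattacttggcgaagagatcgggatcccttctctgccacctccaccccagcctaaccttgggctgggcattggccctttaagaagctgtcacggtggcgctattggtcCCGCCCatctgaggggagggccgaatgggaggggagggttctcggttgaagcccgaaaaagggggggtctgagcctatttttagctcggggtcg
Kat6b: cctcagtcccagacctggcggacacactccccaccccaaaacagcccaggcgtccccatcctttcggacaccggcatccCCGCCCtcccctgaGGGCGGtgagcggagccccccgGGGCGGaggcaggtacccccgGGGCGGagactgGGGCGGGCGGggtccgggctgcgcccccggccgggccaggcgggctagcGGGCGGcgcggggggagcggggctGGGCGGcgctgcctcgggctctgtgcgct
Kdm6a: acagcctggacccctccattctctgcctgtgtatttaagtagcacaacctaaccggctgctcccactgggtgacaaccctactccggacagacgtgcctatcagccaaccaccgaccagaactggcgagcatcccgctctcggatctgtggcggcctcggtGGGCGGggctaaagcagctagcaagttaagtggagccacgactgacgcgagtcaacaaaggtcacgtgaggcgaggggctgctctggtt

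The GC box count was 3 for Kdm7a, 1 for Hdac5, 8 for Kat6b and 1 for Kdm6a, counting both strands and overlapping matches. Windows of 51 members were in the RefSeq table, 67 windows in all. The GC box was found in 38 of them (56.7%), against 32.7% of 32851 windows of the same length. The CCAAT box (CCAAT) was in 37.3% of member windows and 33.9% of all, the ETS core (CGGAAG) in 22.4% and 13.6%, and the E-box (CACGTG) in 8.96% and 6.02%, each on both strands. Member windows held a median of 17 CpG dinucleotides and all windows 6. Kdm7a stood at 56 CpG, Kat6b at 27, Kdm6a at 15 and Hdac5 at 12. These are matches of letters and not sites shown to be bound. Windows are not separate genes: those of Kat6b, of Setd3 and of Prmt8 overlap almost wholly, and each holds GC boxes. Several member windows, such as those of Crebbp, Ep300 and Prmt6, lie wholly in annotated exons. The set of all windows was not matched to the member windows for CpG content, so the shares do not set these genes apart.

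The genes grouped as H3K4 methyltransferases were all lower in the library labelled P2X1-KO (54.2% of all genes), and none by 2-fold (10.6%). Their 7 intervals all lay below no change (43.7% of all genes), with a median log2 difference of -0.49. Setd1a, which encodes a catalytic subunit of the SET1 COMPASS complex, had 3212 counts (206 CPM) in the library labelled WT against 980 (110 CPM) in the other, 1.87-fold lower (1.74 to 2.01). Its annotated exons share 51.8% of their length with another gene model on the same strand, Gm49388, so its value is uncertain. Its paralog Setd1b was 1.40-fold lower, at 99.5 and 71.2 CPM. Kmt2b, Kmt2c and Kmt2d, the catalytic subunits of complexes that act at promoters and, for the last 2, at enhancers, were close to each other, at 1.41-fold, 1.495-fold and 1.41-fold lower. Per kilobase of exon, Setd1a had the highest level of the 7 genes, 30.3 and 16.2 CPM per kb, and Kmt2c the lowest, 3.36 and 2.25. Setd7, which methylates H3K4 and non-histone proteins, was 1.23-fold lower (1.07 to 1.42). Kmt2e, whose protein has a SET domain but no known histone methyltransferase activity, was nearly level at 128 and 118 CPM. After the length and GC correction the median of these 7 genes was -0.10, and Setd7 and Kmt2e had the opposite sign.

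Among the H3K36 methyltransferases and other SET-domain genes, 7 of 8 were lower and 1, Nsd1, at least 2-fold so. Over all genes these shares were 54.2% and 10.6%. Nsd1, which places mono- and dimethylation on H3K36, lies at chr13:55209782-55318325 (plus strand) (GENCODE M21, mm10). It had 4087 counts in the library labelled WT against 1045 in the other, or 262 and 118 CPM, 2.23-fold lower (2.08 to 2.39). The related enzymes differed less: Whsc1 (NSD2) stood at 105 and 74.0 CPM, 1.41-fold lower, and Whsc1l1 (NSD3) at 92.6 and 85.6 CPM, with an interval that included no change (0.99 to 1.18). Setd2, whose product adds the final methyl group to H3K36, was 1.87-fold lower (1.73 to 2.02), at 178 and 95.7 CPM. Setd5 was 1.65-fold lower and the low-level Setd4 1.64-fold lower, on 178 and 62 counts. Setd6, which methylates the NF-kB subunit RelA, was 1.33-fold lower, and Setd3, an actin histidine methyltransferase, was level at 85.6 and 89.95 CPM. The group's median was -0.58, or -0.36 after the length and GC correction, where Whsc1 and Whsc1l1 turned positive (0.08 and 0.37). Under it Nsd1 went from -1.15 to -0.68, no longer past 2-fold, and Setd2 from -0.90 to -0.36.

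Lysine demethylases spread more widely. Of 14 measured, 13 were lower in the library labelled P2X1-KO, 2 of them at least 2-fold, and 1 was at least 2-fold higher. Over all genes these shares were 54.2%, 10.6% and 12.1%. Kdm6a, encoding the H3K27 demethylase UTX, lies at chrX:18162575-18279936 (plus strand). It had 771 and 184 counts, or 49.45 and 20.7 CPM, 2.39-fold lower (2.03 to 2.82). Its paralog Kdm6b, encoding JMJD3, stood higher per kilobase in both libraries (22.0 and 18.0 CPM per kb, against 5.90 and 2.47 for Kdm6a) and was 1.22-fold lower (1.14 to 1.31). Jmjd1c, of the family that acts on H3K9, had 178 and 80.4 CPM, 2.21-fold lower (2.04 to 2.41), while the other members of that family, Kdm3a and Kdm3b, were 1.37-fold and 1.11-fold lower. Of the exon length of Kdm3b, 24.6% overlaps Gm26538, an RNA gene on the opposite strand. Kdm2a, which removes methylation from H3K36, was 1.92-fold lower (1.76 to 2.09). After the length and GC correction Kdm6a went from -1.24 to -0.73 and Jmjd1c from -1.14 to -0.66, neither then past 2-fold, and Kdm2a from -0.94 to -0.46. The median of the 14 went from -0.33 to -0.0645, and Kdm3b, Kdm4c, Kdm5b and Kdm5c turned positive.

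Kdm7a was the 1 demethylase higher in the library labelled P2X1-KO. It encodes a demethylase of H3K9 and H3K27 with a PHD finger and lies at chr6:39136623-39206789 (minus strand). It had 655 counts (42.0 CPM) in the library labelled WT against 755 counts (85.0 CPM) in the other, 2.02-fold higher (1.82 to 2.25). This log2 difference of 1.01 became 1.48 after the length and GC correction. The H3K9 and H3K36 demethylase genes Kdm4a and Kdm4b were 1.57-fold and 1.53-fold lower, and Kdm4c was level at 26.0 and 24.2 CPM. Of the H3K4 demethylases, Kdm5c stood at 128 and 120 CPM and Kdm5b at 22.0 and 17.7 CPM, the lowest of the group per kilobase (1.33 and 1.07 CPM per kb). Kdm5a was below the 5 CPM level, with 71 and 12 counts, 3.37-fold lower (1.81 to 6.83). Kdm1a, encoding LSD1, was 1.24-fold lower (1.11 to 1.40) at 58.6 and 47.1 CPM, and Kdm1b, with 213 and 95 counts, had an interval that reached no change.

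All 9 lysine acetyltransferases stood lower in the library labelled P2X1-KO, 6 of them with the whole interval, and 2 by at least 2-fold. Over all genes these shares were 54.2%, 43.7% and 10.6%. Kat6b, encoding a MYST-family enzyme that acetylates H3, had the largest fold of the 60 measured members. The gene (chromosome 14, plus strand, 21481434 to 21672478) had 358 and 69 counts, or 23.0 and 7.77 CPM, 2.96-fold lower (2.28 to 3.88). Its paralog Kat6a had 62.98 and 43.6 CPM and was 1.45-fold lower (1.28 to 1.63). Crebbp, encoding CBP, stood at 85.8 and 39.3 CPM, 2.18-fold lower (1.94 to 2.46). Ep300, encoding the closely related p300, was level, at 99.8 and 95.8 CPM (0.96-fold, 0.88 to 1.04). Kat7, encoding HBO1, was 1.78-fold lower (1.66 to 1.92) on 2900 and 926 counts.

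Kat2a, encoding GCN5, had the highest level of the acetyltransferases per kilobase, 57.9 CPM per kb in the library labelled WT against 43.9 in the other, and was 1.32-fold lower. Kat2b (PCAF) was 1.54-fold lower. The genes of the catalytic subunits of the TIP60 and MOF complexes, Kat5 and Kat8, were nearly level at 71.2 and 64.6 CPM and at 36.2 and 34.4 CPM. Kat5 shares 12.1% of its exon length with Rnaseh2c on the opposite strand. The median of the group was -0.53, or -0.36 after the length and GC correction, where Ep300 had the opposite sign (0.36). Crebbp went from -1.12 to -0.74 under it, no longer past 2-fold, and Kat6b from -1.505 to -1.03.

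**Figure D2:**
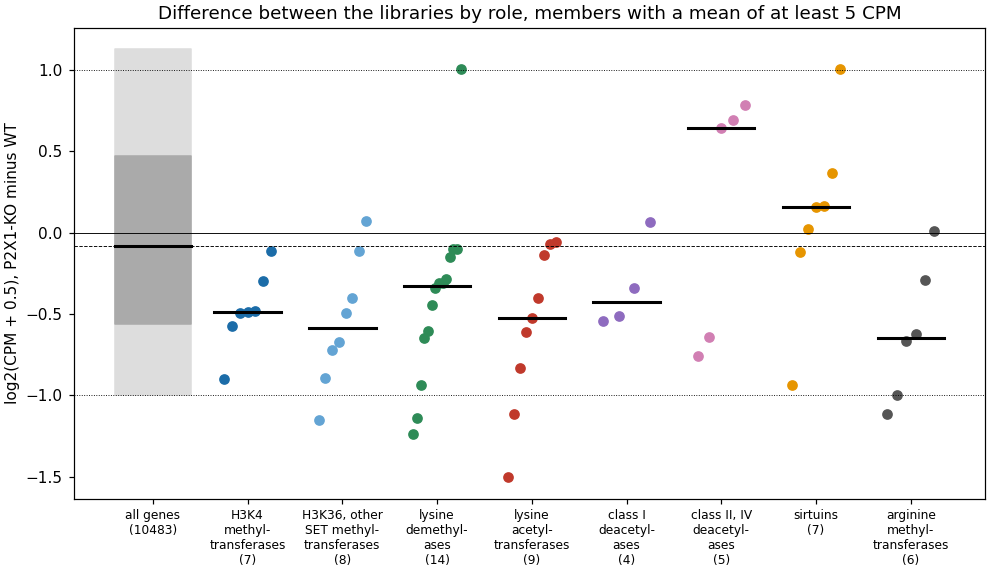
Log2(CPM + 0.5) in the library labelled P2X1-KO minus that in the library labelled WT (vertical axis) for members with a mean of at least 5 CPM, 1 point per gene, by role; short bars are medians, the dark and light boxes hold the central 50% and 80% of all genes, and the dashed line is the median of all genes. Medians lie below the dashed line in 6 groups and above it for class II and IV deacetylases (0.65) and sirtuins (0.16). The class II and IV group was split, with 3 measured genes higher and 2 lower. Hdac11, its class IV gene, was under 5 CPM and is not drawn.

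Deacetylases differed by class. Among the class I genes, Hdac1, Hdac2 and Hdac3 encode nuclear enzymes of corepressor complexes. Hdac1 was 1.27-fold lower (1.16 to 1.38) at 109 and 86.2 CPM, and Hdac3 1.46-fold lower (1.31 to 1.64). Hdac8, also of class I, was 1.45-fold lower (1.09 to 1.96) on 171 and 67 counts. Hdac2 was level at 71.6 and 74.98 CPM. The median of the 4 class I genes was -0.43.

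Class II and IV genes went in both directions. Class IIa enzymes shuttle between nucleus and cytoplasm and bind MEF2 factors. Hdac5 had 1730 counts (111 CPM) in the library labelled WT against 1545 counts (174 CPM) in the other, 1.57-fold higher (1.46 to 1.68), and lies at chr11:102194432-102230166 (minus strand). Hdac7 had 59.5 and 96.5 CPM, 1.62-fold higher (1.48 to 1.78). Hdac9, under the 5 CPM level, had 20 and 52 counts, 4.56-fold higher (2.68 to 8.07). Hdac4 went the other way, at 36.05 and 23.0 CPM, 1.57-fold lower (1.34 to 1.85). Of its exon length, 22.4% overlaps Gm26720, an RNA gene on the opposite strand.

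The class IIb genes were also split. Hdac10, known as a polyamine deacetylase, was 1.74-fold higher (1.49 to 2.05) on 311 and 309 counts, and Hdac6, the cytoplasmic tubulin deacetylase, was 1.70-fold lower (1.499 to 1.93) at 63.9 and 37.6 CPM. Hdac11, the class IV gene, had 100 counts (6.41 CPM) in the library labelled WT against 8 counts (0.901 CPM) in the other, 7.12-fold lower (3.48 to 16.9). Its mean was under 5 CPM, so it is not in the counts above. Its position is chromosome 6, plus strand, 91156665 to 91174692. With total-count scaling the log2 differences of Hdac5, Hdac7 and Hdac10 stayed above 0, and after the length and GC correction they were 0.999, 0.95 and 0.85.

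Sirtuins, the NAD-dependent deacylases, were mostly level or higher. Of 7 measured, 5 were above no change (45.8% of all genes) and 2 with the whole interval (35.9% of all genes), and the median was 0.16. Sirt2, a mainly cytoplasmic enzyme that also acts on chromatin in mitosis, lies at chr7:28766735-28788661 (plus strand). It had 683 counts (43.8 CPM) in the library labelled WT against 787 counts (88.6 CPM) in the other, 2.02-fold higher (1.82 to 2.24). Sirt7, the nucleolar sirtuin, had the highest level of the family, 37.9 and 48.9 CPM per kb, and was 1.29-fold higher (1.22 to 1.36). Sirt1, the nuclear enzyme with many non-histone substrates, was the exception, with 471 and 138 counts, or 30.2 and 15.5 CPM, 1.94-fold lower (1.61 to 2.37).

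The mitochondrial sirtuin genes Sirt3, Sirt4 and Sirt5 and the chromatin-bound Sirt6 all had intervals that included no change. Their levels were 23.7 and 26.7 CPM for Sirt3, 10.4 and 10.6 for Sirt4, 11.5 and 10.6 for Sirt5, and 33.3 and 37.2 for Sirt6. Sirt3, Sirt4 and Sirt6 had the opposite sign with total-count scaling, under which the sirtuin median was -0.0193.

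Arginine methyltransferases had the lowest median of the role groups, -0.65 over 6 measured genes. Prmt5, the main enzyme of symmetric arginine dimethylation, had 2900 and 824 counts, or 186 and 92.8 CPM, 2.01-fold lower (1.86 to 2.17). Prmt6, which methylates arginine 2 of H3, had 40.0 and 18.2 CPM, 2.19-fold lower (1.84 to 2.62). An antisense gene, C130013H08Rik, covers 23.4% of its exons. The main asymmetric enzyme gene, Prmt1, was 1.23-fold lower (1.16 to 1.30) and had the highest level per kilobase of all members, 65.7 and 53.5 CPM per kb. Prmt7 was 1.59-fold and Prmt3, whose product methylates a ribosomal protein, 1.55-fold lower, and Prmt9 was level at 36.9 and 37.2 CPM. Prmt2 was under the 5 CPM level with 35 and 12 counts. After the length and GC correction Prmt6 was at -1.01 and Prmt5 at -0.97, just short of 2-fold, and the group's median was -0.38.

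**Figure D3:**
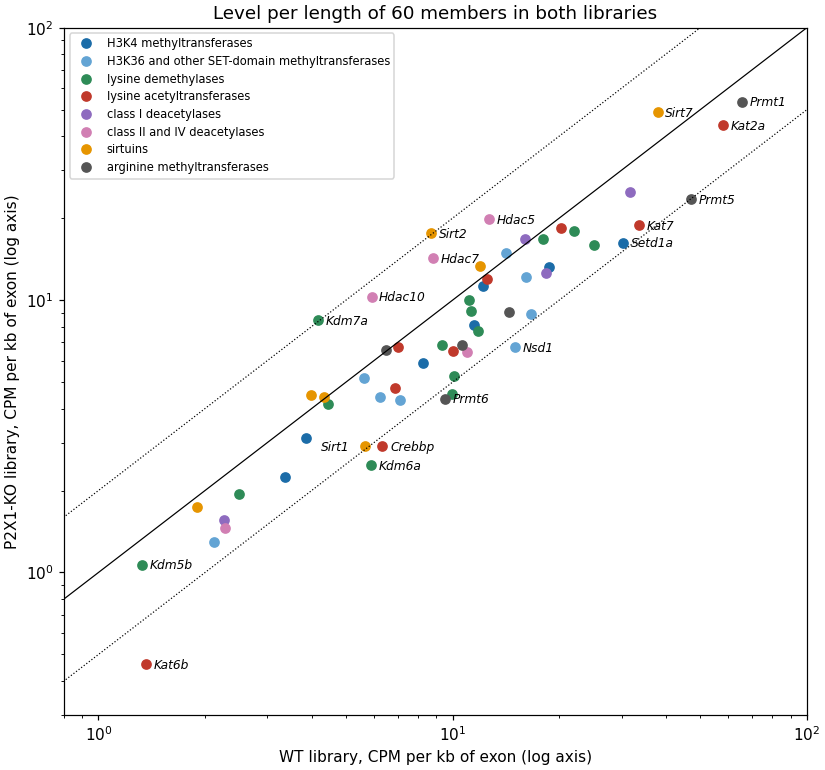
Level of the 60 measured members in CPM per kilobase of exon, the library labelled WT (horizontal) against the library labelled P2X1-KO (vertical), both log axes; the solid line is equality and dotted lines are 2-fold. Levels ran from 1.33 to 65.7 CPM per kb in the first and from 0.462 to 53.5 in the second, and most points lie just below equality.

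The order of levels was largely shared. Across the 60 genes Pearson's r of log2 CPM per kb between the libraries was 0.920 and Spearman's rho 0.891, given as a description, since both come from the same gene lengths and single libraries. Prmt1 and Kat2a led in the library labelled WT, while in the library labelled P2X1-KO Prmt1 was followed by Sirt7. At the threshold, Prmt5 (2.01-fold lower) lay just inside and Sirt1 (1.94-fold) and Kdm2a (1.92-fold) just outside. On the other side Sirt2 and Kdm7a lay just inside and Hdac10 (1.74-fold higher) outside. Together the 66 members took 85335 counts, or 0.582% of the library labelled WT (0.578 to 0.586), against 37412 counts, or 0.396% of the library labelled P2X1-KO (0.392 to 0.400, exact 95% intervals).

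**Figure D4:**
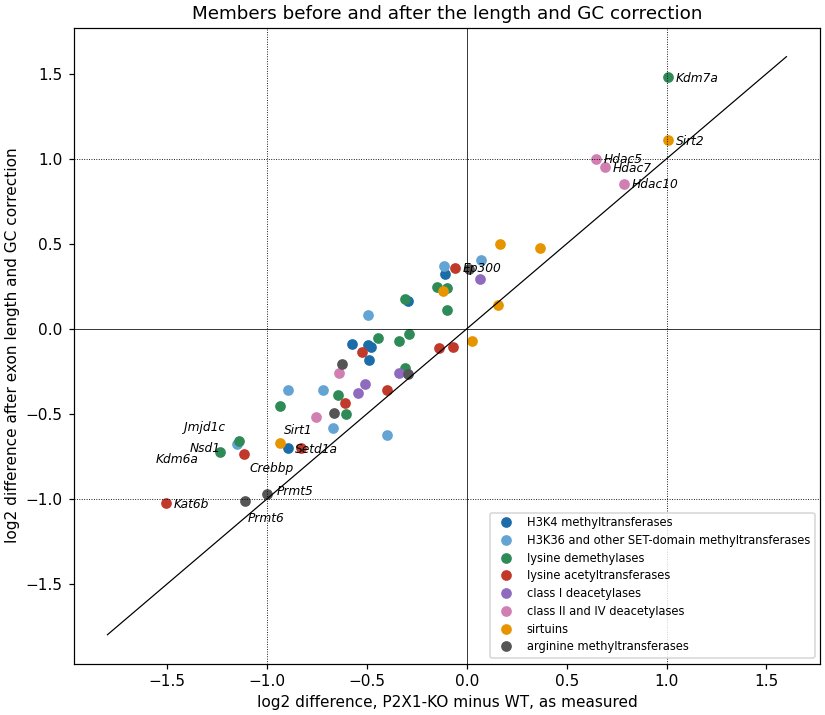
Log2 difference of the 60 measured members as measured (horizontal) and after the exon length and GC correction (vertical), by role; the diagonal is equality and dotted lines are 2-fold. Most points lie above the diagonal, Kat6b and Prmt6 stay beyond 2-fold lower, and Kdm7a and Sirt2 stay beyond 2-fold higher.

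The ratio of related enzymes within each library needs no scaling, but it was not corrected for exon length and GC content, which can differ between related genes. For 22 comparisons of related genes it is given as a description, since the genes and their order were chosen after the values were seen, which fixed the direction, and some genes, such as Hdac4 and Nsd1, enter more than 1 comparison. The ratio of Crebbp to Ep300, per kilobase, was 0.906 in the library labelled WT against 0.432 in the other, a 2.10-fold difference (1.81 to 2.43). For Kdm6a to Kdm6b it was 0.268 and 0.137, a 1.95-fold difference (1.63 to 2.34), and for Nsd1 to Whsc1l1 2.68 and 1.30, a 2.06-fold difference (1.84 to 2.31). The ratio of Sirt1 to Sirt2 was 0.651 and 0.166, a 3.93-fold difference (3.16 to 4.92). Among deacetylases, Hdac4 to Hdac5 differed 2.46-fold (2.06 to 2.94) and Hdac6 to Hdac10 2.96-fold (2.41 to 3.64). By contrast, the ratios of Kmt2c to Kmt2d (1.06-fold, 0.93 to 1.21), Kdm1b to Kdm1a (1.03-fold, 0.78 to 1.36) and Kat2b to Kat2a (1.16-fold, 0.999 to 1.36) had intervals that included 1. These ratios show unequal change and not which gene of a comparison moved.

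**Figure D5:**
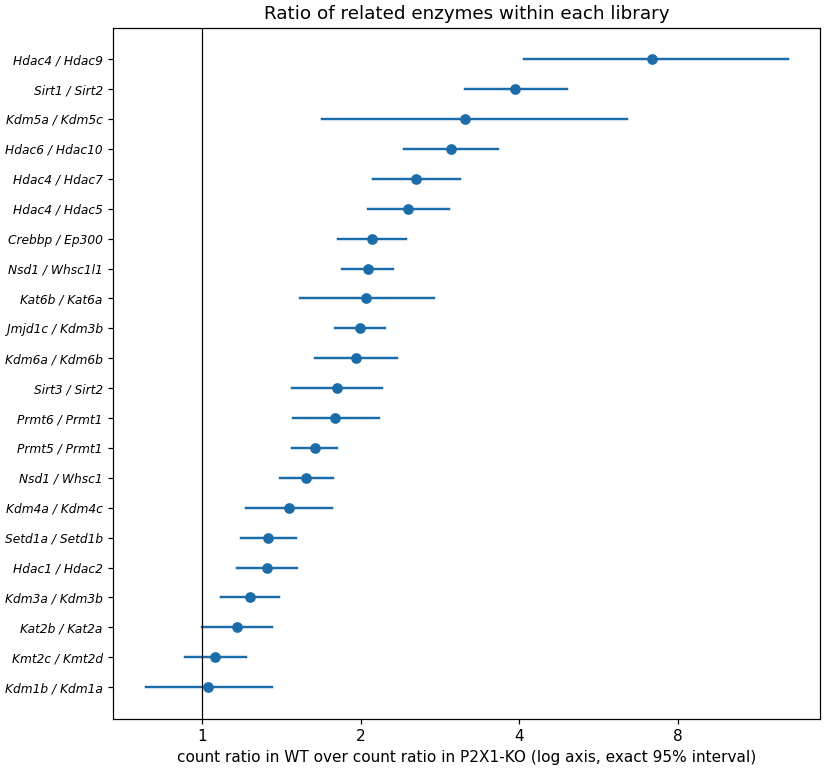
Ratio of the counts of related genes in the library labelled WT over the same ratio in the library labelled P2X1-KO (log axis) for 22 comparisons, with exact 95% counting intervals; 1 means an equal ratio. Hdac4 to Hdac9 stands furthest out at 7.14, on 20 counts of Hdac9 in the library labelled WT, and Kdm1b to Kdm1a is closest to 1.

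Subunits of the complexes that hold these enzymes also had medians below 0. Their counts past 2-fold are to be read beside 12.1% of all genes higher and 10.6% lower. Of 10 COMPASS core subunits 1 was at least 2-fold lower, a share near that of all genes, and 0 higher, with a median of -0.30. That gene was Hcfc1, encoding the host cell factor that bridges SET1 and other complexes, at 307 and 122 CPM, 2.52-fold lower (2.36 to 2.69). All 26 acetyltransferase complex subunits lay within 2-fold, with a median of -0.52. Of 29 measured corepressor subunits of 32 listed, 2 were at least 2-fold lower and 2 higher (median -0.33). Sap30, of the SIN3 complex, had 15.5 and 38.2 CPM, 2.47-fold higher (2.09 to 2.92). Chd3, a helicase of the NuRD complex, was 3.04-fold lower (2.66 to 3.49) and Arid4b 2.11-fold lower. The whole interval of Sap30 lay beyond 2-fold higher, which held for 0 members.

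Other histone enzymes, outside the families above, had medians below 0 too. Their counts past 2-fold are to be read beside the same shares, 12.1% of all genes higher and 10.6% lower. Of 24 genes of histone methylation, 19 were measured, 1 was at least 2-fold lower and 0 higher (median -0.32). It was Phf8, an X-linked demethylase related to Kdm7a, at 31.6 and 12.4 CPM, 2.55-fold lower (2.07 to 3.17), opposite in direction to Kdm7a. Of 15 genes of acetylation, phosphorylation and ubiquitination, 3 were at least 2-fold lower (20%) and 2 higher (13.3%), with a median of -0.48. Ncoa3, a nuclear receptor coactivator, was 2.07-fold higher (1.86 to 2.296) and Ube2b, the ubiquitin-conjugating enzyme for H2B, 2.02-fold higher (1.83 to 2.23). Gtf3c4 was 2.56-fold lower (2.10 to 3.16) and Mysm1, a histone H2A deubiquitinase, 2.36-fold lower (2.01 to 2.77).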

How the data were processed

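The authors deposited 1 table of unnormalized whole-number counts, gene symbols by libraries. Per the submitters' processing notes, HISAT2 2.0.4 did the alignment and mm10 was the build. The sources used here name no counting tool, annotation, strand setting or filter, so reads of overlapping genes cannot be assigned with certainty. Counts were scaled by TMM in edgeR 4.0.16 (R 4.3.3), with effective library sizes of 15591519 (WT) and 8882591 (P2X1-KO). Genes were kept at a mean of at least 5 CPM, and the log2 difference used a pseudocount of 0.5 CPM, which understates low genes. Exact intervals are Clopper-Pearson intervals of counts given their sum, or, for ratios of related genes, exact conditional intervals; they cover counting error only, since reads are not independent molecules. A count of 0 was taken, by a rule of thumb, to allow up to 3 counts, or 0.192 CPM (WT) and 0.338 CPM (P2X1-KO). The exact 95% interval of a count of 0 reaches 3.69 counts.

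Exon lengths (union of exons), positions and GC content (longest transcript) came from GENCODE M21, on the same assembly, which matched 64 members by symbol and 2, Whsc1 and Whsc1l1, by an older symbol. Of all genes at 5 CPM, 97.7% had both values, and the correction subtracted the median log2 difference in 20 bins of length and then 20 bins of GC content. Promoter windows came from RefSeq. Interval coverage and the correction were tested on simulated data. Members, lists and rules were chosen with earlier results of these data known, and the comparisons of related genes, their order and the upstream windows shown were chosen after their values were seen. The named members are the 10 with the highest and the 10 with the lowest bound nearest to no change (6 higher ones existed), the most and least abundant per kilobase of each role, and all under 5 CPM; others are named with their role. Lists of other genes name up to 2 in each direction, and some genes of these lists are not reported here. Alternatives were other scalings, minimums, pseudocounts, the whole-interval rule and the length and GC correction.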

Additional observations from a re-analysis of the deposited data

How the results depend on the processing

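No paired analysis was possible because there was 1 library per group, and leaving out a library was not possible for the same reason. DESeq2 size factors changed no count by over 1.5 times and no median beyond its counting error, and upper-quartile scaling did the same except for the median of all genes, 0.0005 in place of -0.08. With total counts there were 0 members at least 2-fold higher and 12 lower, and the members' median was -0.60. The other medians became -0.67 (H3K4 methyltransferases), -0.76 (H3K36 and other SET-domain genes), -0.50 (demethylases), -0.70 (acetyltransferases), -0.60 (class I deacetylases), -0.0193 (sirtuins, reversed), -0.82 (arginine methyltransferases), -0.49 (other methylation enzymes), -0.47 (COMPASS) and -0.51 (corepressors). Without the 20 most abundant genes in the totals there were again 0 and 12 members, 1735 genes in all were at least 2-fold lower, and the median of all genes was -0.28 and of the members -0.62. In the same order the groups stood at -0.69, -0.78, -0.52, -0.72, -0.62, -0.0385 (sirtuins, reversed), -0.84, -0.49, -0.49 and -0.52, with class II and IV deacetylases at 0.45 and acetyltransferase complexes at -0.71. The length and GC correction left 2 members at least 2-fold lower. It gave medians of -0.12 (members), -0.10 (H3K4), -0.36 (H3K36 and other SET-domain genes), -0.0645 (demethylases), 0.85 (class II and IV deacetylases), -0.38 (arginine methyltransferases), -0.15 (other methylation enzymes), -0.17 (other acetylation, phosphorylation and ubiquitination enzymes), -0.0685 (COMPASS), -0.32 (acetyltransferase complexes) and -0.10 (corepressors). The sign changed for 11 of 60 members under it, and for 6 with total counts. The whole-interval rule gave 0 higher and 4 lower members and 651 lower genes in all. Minimums of 1 CPM and of 1 count gave 2074 and 3604 higher and 1870 and 6484 lower genes, having more low genes to count. The cause of the other changes was not tested. Depth limits Kdm5a, Hdac9, Hdac11 and Prmt2, with at most 100 counts in either library.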
